A study of Mus musculus with 6 samples.

Results

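The 10 genes described here encode the neuronal subunits of the nicotinic acetylcholine receptor, *Chrna2*, *Chrna3*, *Chrna4*, *Chrna5*, *Chrna6*, *Chrna7*, *Chrna9*, *Chrnb2*, *Chrnb3* and *Chrnb4*. They were taken by symbol from the 32285 genes counted, by a list of names with no threshold on a measured value. Single cells were prepared from whole autonomic ganglia of mouse pups of both sexes at postnatal day 5, which carry a Cre transgene and a Cre-dependent tdTomato reporter (*RosatdT*). All groups carry both alleles and none was treated. Round 1, with 10x chemistry version 2 and 10000 cells loaded, gave 3 libraries, named stellate, sphenopalatine and pelvic_1. Round 2, with chemistry version 3 and 5300 cells loaded, gave 3 more, named coeliac, lumbar and pelvic_2.

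The stellate and the lumbar ganglia belong to the paravertebral sympathetic chain, the coeliac is prevertebral, the sphenopalatine is parasympathetic, and the pelvic ganglion serves the bladder, rectum and genitals. Neurons numbered 2724 in the stellate, 1903 in the sphenopalatine, 893 in pelvic_1, 237 in the coeliac, 930 in the lumbar and 365 in pelvic_2 library, 7052 of 21442 retained cells. The median number of unique molecular identifiers (UMIs, each of which marks 1 captured RNA molecule) per neuron was between 26651 and 39381 in round 1 and between 56713 and 108598 in round 2. Only the pelvic ganglion had 2 libraries, 1 from each round, so no test between ganglia was possible, and ganglia are set side by side within a round. A level is given in CPM, the UMIs of a gene per 1000000 UMIs summed over the neurons of a library. Its 95% exact Poisson interval, like the exact binomial intervals of shares, covers counting error only. Since the libraries count RNA molecules at 1 end, CPM was not divided by gene length, and the capture of that end can differ from gene to gene.

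Nicotinic receptors are cation channels of 5 subunits that open when acetylcholine binds, and they carry the fast signal from preganglionic axons to the neurons of every autonomic ganglion, whichever transmitter those neurons release in turn. The main ganglionic receptor joins the alpha3 and beta4 subunits, and alpha5 is an accessory subunit that needs both an alpha and a beta partner. Alpha4 with beta2 forms the most widespread receptor of the brain, and alpha7 forms channels on its own. Alpha6 and beta3 are known from midbrain dopaminergic neurons and the retina, alpha9 from the hair cells of the cochlea, and alpha2 from restricted groups of central neurons.

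The genes of the alpha5, alpha3 and beta4 subunits are neighbours on mouse chromosome 9. In the GRCm38 build, *Chrna5* lies at chr9:54980880-55007779 on the plus strand, *Chrna3* at chr9:55010111-55026562 and *Chrnb4* at chr9:55028154-55048779 on the minus strand. The gaps between them were 2331 and 1591 bases, and GENCODE M21 annotates 0 genes inside them. *Chrnb2* lies at chr3:89746195-89764632 and overlaps *Adar* on the opposite strand, *Chrna4* at chr2:181018380-181043546 and *Chrna7* at chr7:63098692-63212569, each on the minus strand. *Chrna6* and *Chrnb3* form a second pair of neighbours on chromosome 8, 3481 bases apart. The 250 bases before the RefSeq start (GRCm38.p6) are shown for the 2 cluster genes whose window holds no annotated exon. Each is written 5′ to 3′ on its own strand, and capitals mark a GC box (GGGCGG or CCGCCC, both strands searched) or an E box (CANNTG, which reads as itself on the other strand).
Chrna5: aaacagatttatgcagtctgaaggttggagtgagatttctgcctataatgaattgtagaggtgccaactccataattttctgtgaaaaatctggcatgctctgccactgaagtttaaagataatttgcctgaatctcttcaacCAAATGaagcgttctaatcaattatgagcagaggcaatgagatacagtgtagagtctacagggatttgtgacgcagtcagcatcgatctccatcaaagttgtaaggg
Chrna3: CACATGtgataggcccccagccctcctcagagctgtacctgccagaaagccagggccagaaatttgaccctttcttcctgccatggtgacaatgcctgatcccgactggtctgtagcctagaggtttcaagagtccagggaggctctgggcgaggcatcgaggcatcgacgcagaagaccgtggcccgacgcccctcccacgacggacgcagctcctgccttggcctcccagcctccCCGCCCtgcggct
The *Chrna5* window, chr9:54980630-54980879, held 1 E box that began 107 bases before the start and 0 GC boxes. The *Chrna3* window, chr9:55026563-55026812, held 1 GC box that began 13 bases before the start and 1 counted E box at its far end, 250 bases before it. A further match to CANNTG overlaps this E box and was neither counted nor marked, since matches were sought without overlap in every window. A second annotated start of *Chrna5* had 4 GC boxes and 2 E boxes in its window, and that of *Chrnb4* had 0 GC boxes and 2 E boxes. Of 32851 promoter windows of this length, 32.7% held a GC box and 66.2% an E box, so these matches are frequent and describe the letters only.

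*Chrna3*, the ligand-binding subunit of the ganglionic receptor, had the highest level of the 10 genes in each library. In round 1 its level in neurons was 225 CPM in the stellate, 262 in the sphenopalatine and 216 in pelvic_1. In round 2 it was 167 CPM in the coeliac, 152 in the lumbar and 143 in pelvic_2. The sphenopalatine was highest within round 1, the stellate and pelvic_1 lay close together, and each level of round 1 exceeded each of round 2. The 2 pelvic libraries, of different rounds, differed by 1.51-fold (179 ± 51.8 CPM, SD, n = 2), which is wider than the gap between any 2 libraries within a round. Between 91.1% and 98.8% of neurons in each library had at least 1 *Chrna3* UMI.

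**Figure D1:**
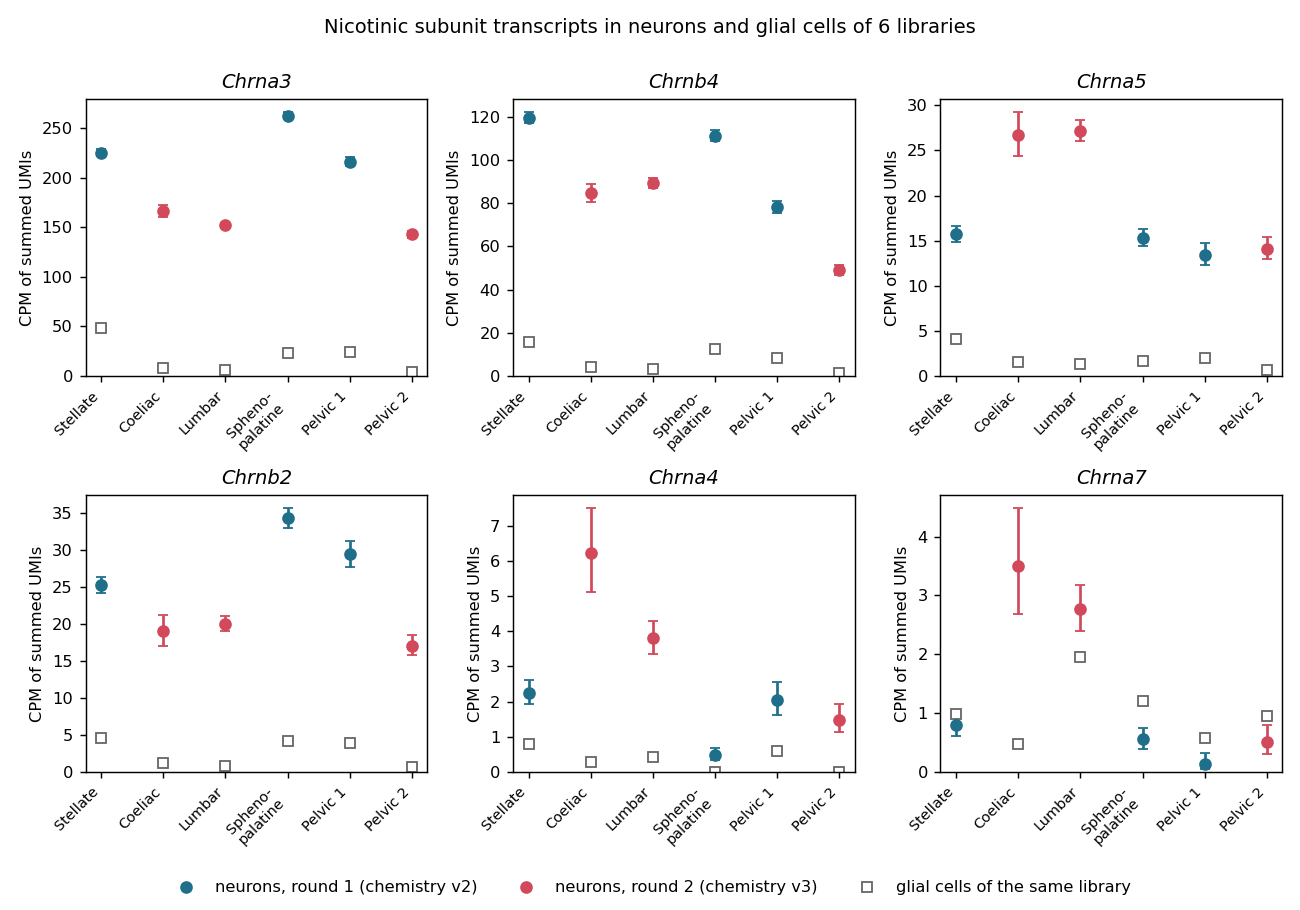
Levels of the neuronal nicotinic subunit genes in neurons of each library, in CPM (y axis), with blue for libraries of round 1, red for round 2, open squares for glial cells of the same library and bars for exact Poisson 95% intervals. *Chrna3* lies between 143 and 262 CPM in the 6 libraries, whereas *Chrna5*, *Chrna4* and *Chrna7* are highest in the coeliac and lumbar libraries.

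*Chrnb4*, the partner of *Chrna3*, came next. Its level was 119.6 CPM in the stellate, 111 in the sphenopalatine and 78.2 in pelvic_1, and 84.6 in the coeliac, 89.3 in the lumbar and 48.9 in pelvic_2. The pelvic library was thus the lowest of its round in both rounds, and the stellate exceeded pelvic_1 by 1.53-fold, the coeliac exceeded pelvic_2 by 1.73-fold and the lumbar by 1.83-fold. The pelvic libraries differed from each other by 1.60-fold (63.6 ± 20.7 CPM, SD, n = 2), a difference that includes that of round and chemistry. The gaps within a round, which repeat in both rounds, are close to it in size, and no ganglion has 2 libraries in 1 round. A *Chrnb4* UMI was found in at least 81.6% of the neurons of each library. *Chrnb4* overlaps the annotated gene *Gm47877*, which lies on the opposite strand.

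*Chrna5*, the accessory subunit, ordered the libraries within each round as *Chrnb4* did, with the pelvic library lowest. It stood at 15.7 CPM in the stellate, 15.3 in the sphenopalatine and 13.5 in pelvic_1, with little difference within round 1. In round 2 it stood at 26.7 CPM in the coeliac (95% interval 24.4 to 29.3), 27.2 in the lumbar (26.0 to 28.4) and 14.1 in pelvic_2 (12.9 to 15.4). The coeliac and lumbar levels exceeded that of pelvic_2 by 1.90-fold and 1.93-fold and did not differ from each other beyond counting error. Here the 2 pelvic libraries were close (13.8 ± 0.46 CPM, SD, n = 2), with a ratio of pelvic_1 to pelvic_2 of 0.954. The stellate, also a sympathetic ganglion, shared the lower level, but its library was made in the other round, and ganglion and round cannot be told apart between the stellate and the coeliac or lumbar.

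*Chrnb2*, the beta subunit best known from the brain, was the only member outside chromosome 9 to reach 10 CPM in a library. It measured 25.3 CPM in the stellate, 34.3 in the sphenopalatine and 29.5 in pelvic_1, and 19.0 in the coeliac, 20.0 in the lumbar and 17.1 in pelvic_2. The sphenopalatine was again the highest of round 1, and the 3 libraries of round 2 lay close together. The 2 pelvic libraries, of different rounds, differed by 1.73-fold (23.3 ± 8.77 CPM, SD, n = 2), more than any ganglia of 1 round did. Its UMIs were found in 46.4% to 70.7% of neurons. Cell Ranger counts reads by strand, so those of *Adar* are kept apart from those of *Chrnb2*.

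*Chrna4*, the usual partner of *Chrnb2* in the brain, was low and uneven. Its level was 2.25 CPM in the stellate, 0.487 in the sphenopalatine and 2.04 in pelvic_1, from 179, 37 and 75 UMIs. It was 6.23 CPM in the coeliac, 3.80 in the lumbar and 1.49 in pelvic_2, from 112, 275 and 55 UMIs. The parasympathetic sphenopalatine library was lowest, below pelvic_1 by 4.20-fold and below the stellate by 4.63-fold, and the coeliac library was highest, above pelvic_2 by 4.18-fold and above the lumbar by 1.64-fold. A *Chrna4* UMI was found in 6.17% of stellate, 1.84% of sphenopalatine and 7.5% of pelvic_1 neurons, and in 30.8% of coeliac, 23.4% of lumbar and 13.2% of pelvic_2 neurons, which differ in depth. After each neuron was thinned to 4000 UMIs, which left out 1 to 41 shallower neurons per library, a *Chrna4* UMI remained in 0.0528% of sphenopalatine, 1.41% of stellate and 1.12% of pelvic_1 neurons, and in 4.31% of coeliac, 2.81% of lumbar and 0.573% of pelvic_2 neurons. In the stellate library *Chrna4* stood at 7.84 CPM (13 UMIs) in the 111 neurons that passed neither transmitter cut, defined further on. In noradrenergic neurons of that library it stood at 2.22 CPM. This contrast concerns 1 small class of 1 library and rests on few UMIs.

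*Chrna7*, the subunit of the homomeric receptor, was lower still in most libraries. It overlaps the annotated gene *Gm44741* on the same strand, and any effect of this on its counts was not tested. Its level was 0.794 CPM in the stellate, 0.552 in the sphenopalatine and 0.136 in pelvic_1 neurons, and 3.50 in the coeliac, 2.76 in the lumbar and 0.515 in pelvic_2 neurons. The coeliac and lumbar libraries again exceeded pelvic_2, by 6.81-fold and 5.37-fold, where pelvic_2 rests on 19 UMIs. In the coeliac 21.9% and in the lumbar 17.1% of neurons had a *Chrna7* UMI, against 4.66% in pelvic_2, but in neurons thinned to 4000 UMIs these shares were 0.862%, 1.35% and 0.573%, near 1 UMI per 100 neurons. Both sympathetic libraries of round 2 lay above the pelvic one for each of the 6 subunit genes above. The excess was 1.90-fold or more for *Chrna5*, *Chrna4* and *Chrna7* and less for *Chrna3*, *Chrnb4* and *Chrnb2*. The coeliac excess of *Chrnb2* was within counting error. In round 1 *Chrnb2* was instead lower in the stellate (25.3 CPM) than in pelvic_1 (29.5 CPM). For *Chrna4* the stellate (2.25 CPM) and pelvic_1 (2.04 CPM) did not differ beyond counting error. These libraries also differ in transmitter class, defined further on, so ganglion and class are mixed here.

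The remaining 4 genes were at or near the limit of detection. *Chrna2* had 38 UMIs in 38 of 7052 neurons, 26 of them in the sphenopalatine library (0.342 CPM), 7 in the stellate, 4 in pelvic_1, 1 in the coeliac and 0 in the lumbar and pelvic_2 libraries. *Chrna6* had 2 UMIs, each in a sphenopalatine neuron, and *Chrna9* had 3. *Chrnb3* had 20 UMIs in 14 neurons, of which 11 lay in the lumbar and 7 in the coeliac library. The 7 coeliac UMIs came from 4 noradrenergic neurons. Of the lumbar UMIs, 7 came from 4 of the 49 cholinergic neurons (1.62 CPM). A gene with 0 UMIs in all neurons would still allow a share of up to 0.0425% of neurons with a UMI.

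The make-up of the subunit pool followed from these levels. *Chrna3* gave 57.9% of the UMIs of the 10 genes in the stellate, 61.8% in the sphenopalatine and 63.6% in pelvic_1, and 54.3% in the coeliac, 51.4% in the lumbar and 63.5% in pelvic_2. Its share was highest in the pelvic libraries in both rounds. *Chrnb4* gave between 21.8% (pelvic_2) and 30.8% (stellate), so that the ratio of *Chrna3* to *Chrnb4* UMIs was 2.76 and 2.92 in the pelvic libraries, 2.36 in the sphenopalatine, and 1.88, 1.97 and 1.70 in the stellate, coeliac and lumbar libraries. The 3 sympathetic libraries had the lowest ratios, across both rounds, and the pelvic libraries the highest. These libraries also differ in transmitter class, defined further on, so this order does not separate ganglion from class. Inside the lumbar library the ratio differed between classes, as given further on. The share of *Chrna5* was 8.71% in the coeliac and 9.22% in the lumbar, 6.27% in pelvic_2, and between 3.61% and 4.04% in round 1. The 3 genes of the chromosome 9 cluster together made up 90.5% to 92.7% of the pool in each library.

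**Figure D2:**
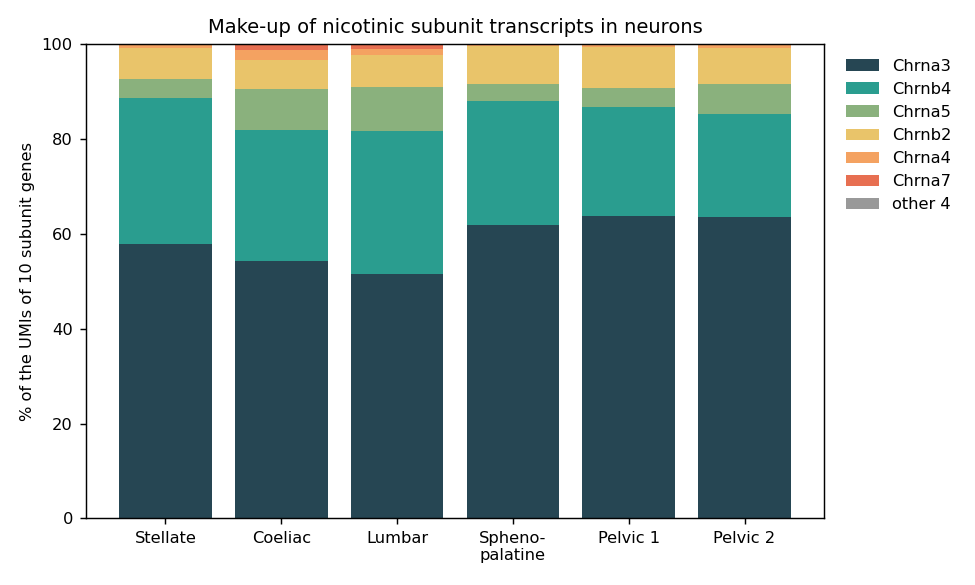
Share of each subunit gene in the UMIs of the 10 genes (y axis, percent) in neurons of each library (x axis). *Chrna3* is the largest share in each bar, from 51.4% in the lumbar to 63.6% in pelvic_1, and *Chrna5* takes 8.71% and 9.22% in the coeliac and lumbar bars.

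Most neurons held RNA of both kinds of subunit. Here the alpha genes counted were *Chrna2*, *Chrna3*, *Chrna4* and *Chrna6*, and the beta genes *Chrnb2* and *Chrnb4*. At least 1 of each kind was detected in 83.8% of stellate, 96.8% of sphenopalatine and 91.2% of pelvic_1 neurons. The shares were 84.0% of coeliac, 89.4% of lumbar and 83.6% of pelvic_2 neurons. No UMI of any of the 10 genes was found in 0.263% (sphenopalatine) to 6.03% (pelvic_2) of neurons. A *Chrna3* and a *Chrnb4* UMI were found together in 80.6% of stellate and 94.2% of sphenopalatine neurons, where independent detection among neurons of like depth would give 80.1% and 94.1%. In pelvic_1 the shares were 84.7% found and 84.2% under independence, in the coeliac 79.3% and 77.9%, in the lumbar 86.8% and 85.4%, and in pelvic_2 80.3% and 79.5%. The share found was close to the other in each library, but both genes were found in most neurons, so the 2 shares had little room to differ. A *Chrnb4* UMI was found in 87.0% to 95.3% of neurons with a *Chrna3* UMI by library. Among neurons without one the share was 16.7% to 72.7%, not matched for depth.

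Glial cells of the same ganglia were compared with neurons to ask in which cells these RNAs lay. Neurons had been chosen by *Stmn2*, *Stmn3*, *Gap43* and *Tubb3*, and glial cells by 5 genes, among them *Ttyh1*, *Fabp7*, *Cryab* and *Mal*, so no member took part in the choice. A *Chrna3* UMI was found in 4.53% to 16.0% of the 8468 glial cells by library, whose median depth was between 3522 and 12151 UMIs, against 91.1% to 98.8% of neurons. For *Chrnb4* the glial share was 1.74% to 5.69%, for *Chrnb2* 0.871% to 1.78%, for *Chrna4* at most 0.378% and for *Chrna7* 0.283% to 2.20%. In the test with the library as a block (edgeR quasi-likelihood, 6 libraries, Benjamini-Hochberg adjustment), 5 of the 6 members that passed the filter on low counts were higher in neurons, where 37.8% of all 14019 genes tested were higher in neurons and 37.4% in glial cells. The log2 difference was 3.85 ± 0.39 (SE) for *Chrna3* (adjusted p = 4.38e-05), 3.87 ± 0.33 for *Chrnb4* (adjusted p = 1.65e-05) and 3.44 ± 0.36 for *Chrna5* (adjusted p = 5.11e-05). It was 3.51 ± 0.32 for *Chrnb2* (adjusted p = 2.48e-05) and 2.99 ± 0.52 for *Chrna4* (adjusted p = 0.0009), and each of these 5 was higher in neurons in 6 of 6 libraries.

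RNA released from broken cells can enter droplets, so the glial counts were set beside those of 7 neuronal genes not used to choose neurons (*Snap25*, *Syt1*, *Uchl1*, *Prph*, *Nefl*, *Nefm* and *Elavl4*). Their median log2 difference between neurons and glial cells was 3.54, against 0.01 over all genes tested. A stellate glial cell held 1.92% to 3.69% as many UMIs of these 7 genes as a stellate neuron, 2.87% for *Chrna3*, 1.73% for *Chrnb4*, 3.47% for *Chrna5* and 2.39% for *Chrnb2*. In each library the glial counts of *Chrna3*, *Chrnb4* and *Chrnb2* were within or below the range of the 7 genes, and those of *Chrna5* were above it only in pelvic_1, at 1.74% against 1.62%. Glial UMIs of these 4 genes are therefore not read as expression, and the part that free RNA or mixed droplets had in them was not tested. The glial counts of *Chrna4* were above the range in the stellate, pelvic_1 and lumbar libraries (4.72%, 3.37% and 1.56%), from 9, 5 and 4 UMIs.

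*Chrna7* differed from the others. Its log2 difference between neurons and glial cells was 0.05 ± 0.58 (adjusted p = 0.937, 95% interval -1.29 to 1.40), which leaves room for a difference of either sign. Glial cells held 0.977 CPM in the stellate, 1.21 in the sphenopalatine and 0.584 in pelvic_1, above the neurons of the same libraries, and 0.483 in the coeliac, 1.95 in the lumbar and 0.955 in pelvic_2. Neurons were higher in the coeliac and lumbar libraries only. Per cell, a glial cell held 16.4% of the *Chrna7* UMIs of a neuron in the stellate, 28.9% in the sphenopalatine, 50.5% in pelvic_1, 2.37% in the coeliac, 10.2% in the lumbar and 23.4% in pelvic_2. Each of these shares lay above the highest of the 7 neuronal genes in its library, which were 3.69%, 1.86%, 1.62%, 1.50%, 1.24% and 0.640%. The glial level rests on 5 to 19 UMIs per library, and outside neurons and glial cells *Chrna7* had 6 UMIs in fibroblasts, 3 in endothelial cells, 1 in mural cells and 0 in macrophages.

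The pelvic ganglion holds both noradrenergic and cholinergic neurons, which allows a comparison of the subunits between transmitter types inside 1 ganglion. A neuron was called noradrenergic with 2 or more UMIs per 10000 of *Th*, the rate-limiting enzyme of catecholamine synthesis, and fewer than 2 UMIs of the acetylcholine genes *Chat* and *Slc18a3*, and cholinergic with less *Th* and 2 or more UMIs of the latter. Pelvic_1 had 105 noradrenergic and 753 cholinergic neurons, and pelvic_2 had 29 and 311. *Chrna3* stood at 163 CPM in noradrenergic and 225 in cholinergic neurons of pelvic_1, and at 141 and 143 in pelvic_2. *Chrnb4* stood at 73.2 and 79.6 CPM in pelvic_1, and at 51.2 and 48.6 in pelvic_2. The classes lay close together in each library except for *Chrna3* in pelvic_1.

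With the library as a block, 0 of the 5 members tested passed the threshold (edgeR quasi-likelihood, 2 libraries, 1 residual degree of freedom), 0 had an unadjusted p under 0.05 and DESeq2 called 0. Over all 14175 genes tested, 9.59% were higher in noradrenergic and 11.8% in cholinergic neurons. The log2 difference, noradrenergic minus cholinergic, was -0.26 ± 0.14 for *Chrna3* (adjusted p = 0.213, 95% interval -0.55 to 0.02) and -0.04 ± 0.15 for *Chrnb4* (adjusted p = 0.901, -0.33 to 0.25). It was 0.30 ± 0.19 for *Chrna5* (adjusted p = 0.316, -0.08 to 0.67) and 0.12 ± 0.17 for *Chrnb2* (adjusted p = 0.723, -0.22 to 0.45). The intervals of these 4 genes reached no further than 0.67 on the log2 scale. Their width comes from a variance that the fit shared between genes, not from the spread of each gene between the 2 libraries. For *Chrna4* the interval was wide, -2.21 to 0.16 about -1.02 (adjusted p = 0.254), with 1 UMI in noradrenergic against 72 in cholinergic neurons of pelvic_1 (0.237 and 2.30 CPM) and 6 against 48 in pelvic_2 (1.74 and 1.45 CPM, with overlapping intervals).

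**Figure D3:**
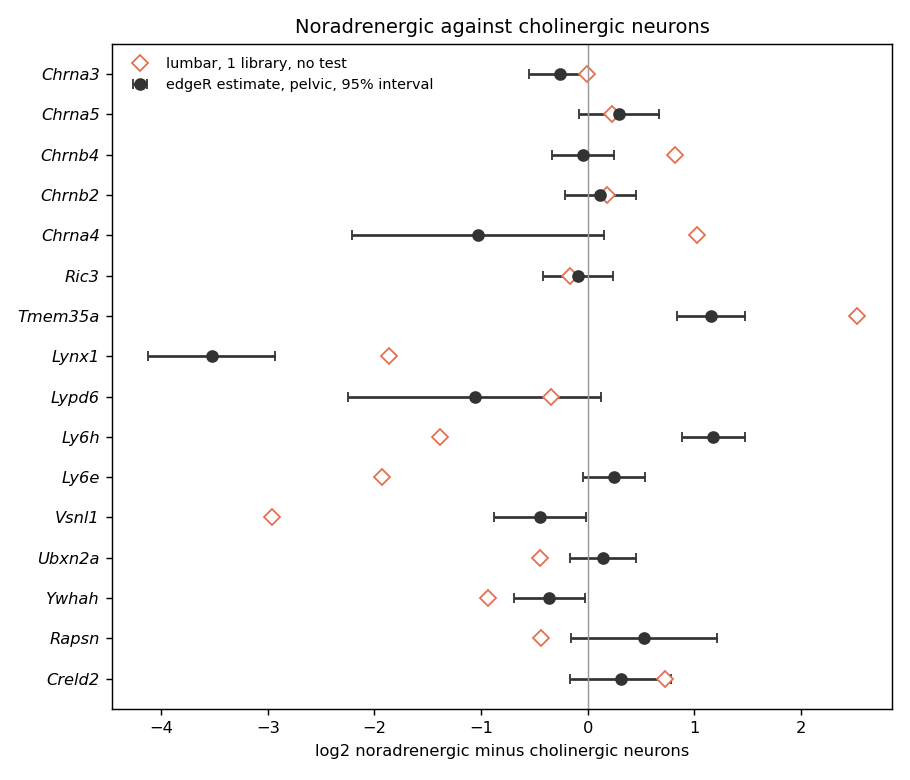
Log2 difference between noradrenergic and cholinergic pelvic neurons (x axis) for the subunit genes and the accessory genes (y axis), as black points with 95% intervals from the edgeR fit, and in the single lumbar library as open diamonds. The 5 subunit genes have intervals that include 0, while *Tmem35a* and *Ly6h* lie to the noradrenergic side and *Lynx1* lies at -3.53.

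In the lumbar library, 623 noradrenergic and 49 cholinergic neurons could be set beside each other, without a replicate. *Chrna3* was nearly level in them, at 150.0 and 151 CPM. *Chrnb4* stood at 93.1 CPM in noradrenergic (95% interval 90.4 to 95.8) and 52.2 in cholinergic neurons (45.6 to 59.5), so that their ratio to *Chrna3* differed. *Chrna5* stood at 27.6 and 23.3 CPM, *Chrnb2* at 20.0 and 17.6, *Chrna4* at 4.34 and 1.62, and *Chrna7* at 2.57 and 0.693, the last from 3 UMIs in cholinergic neurons. A further 124 lumbar neurons passed both cuts, with *Chrna3* at 171 and *Chrnb4* at 94.0 CPM. Lumbar cholinergic neurons came from 1 library, so the *Chrnb4* difference has no replicate check.

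Pelvic neurons were also grouped into clusters on corrected components computed without the 10 genes, and named by marker genes the study lists for its 4 pelvic clusters. The values by cluster are a description, given for pelvic_1 and then pelvic_2. In the P2-like cluster, led by *Grp*, *Chrna3* was at 258 and 139 CPM. In the P1-like cluster, led by *Cartpt*, it was at 181 and 137 CPM. In the P3-like cluster, led by *Th* and *Dbh*, it was at 162 and 138 CPM. These 3 clusters were ordered in pelvic_1 but level in pelvic_2. The P4-like cluster, led by *Calca* and *Aldh1a2*, was the lowest in both libraries at 139 and 72.8 CPM, and an unnamed cholinergic cluster led by *Pcp4l1* and *Penk* was high in both at 244 and 181 CPM. With each library scaled on its own and no correction this cluster was not separate from the P1-like one, and at resolution 0.6 the P2-like cluster was split, so these contrasts depend on the clustering.

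*Chrnb4* was highest in the *Pcp4l1* and *Penk* cluster in both libraries, at 92.6 and 62.5 CPM. It was lowest in the P1-like cluster in pelvic_1 (62.7 CPM) and in the P4-like cluster in pelvic_2 (31.8 CPM). *Chrna5* ranged only from 11.1 to 16.8 CPM among these 5 clusters in pelvic_1 and from 10.5 to 15.8 in pelvic_2, lowest in the P2-like cluster in both. *Chrna4* was highest in the P2-like cluster in both libraries, at 3.65 and 2.82 CPM (50 and 27 UMIs), against 0.948 and 0.847 CPM in the P1-like cluster. The P4-like cluster came nearer, at 1.97 ± 0.17 CPM (mean and SD, n = 2), and the P3-like one was uneven, at 1.02 ± 1.17 CPM. Both rest on few UMIs, and in pelvic_2 their counting intervals overlapped that of the P2-like cluster. In the P4-like cluster the summed glial markers were at 370 CPM, against 76.3 to 130.2 CPM in the other 4, and their part in its levels was not tested. A sixth cluster of 66 neurons, led by *Hbb-bs* and *Hba-a1*, had a median of 6365 UMIs and 3846 CPM of fibroblast markers, and *Chrna3* at 206 and 124 CPM there.

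**Figure D4:**
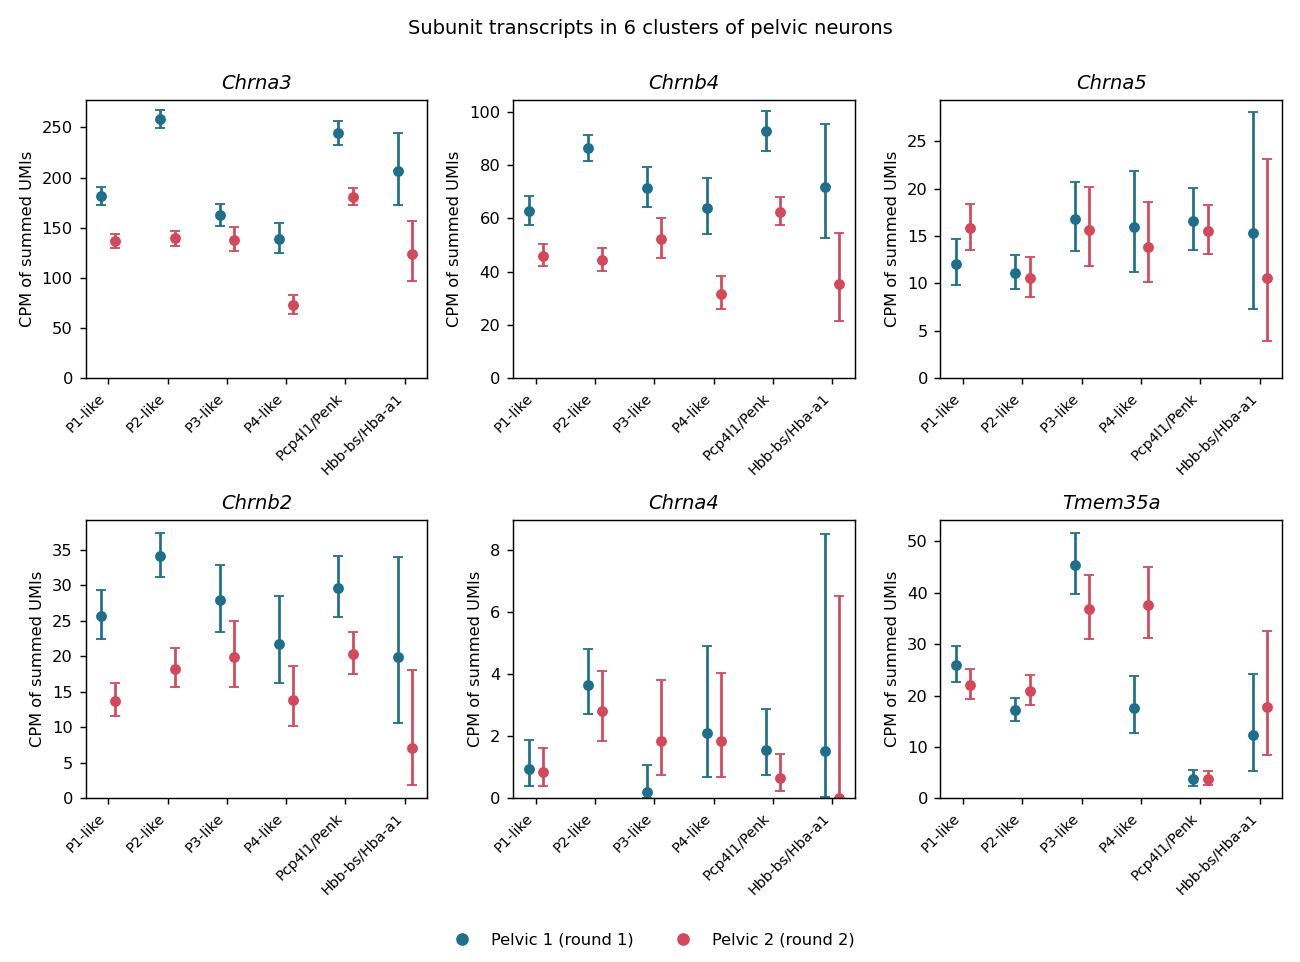
Levels of 5 subunit genes and *Tmem35a* in CPM (y axis) in pelvic neuron clusters (x axis), with 1 point per pelvic library and bars for exact Poisson 95% intervals. *Chrna3* is lowest in the P4-like cluster in each library (139 and 72.8 CPM), and *Tmem35a* is near 3.8 CPM in the cluster led by *Pcp4l1* and *Penk*.

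Nicotinic receptors need helpers for assembly and are tuned by proteins of the membrane, and 12 such genes were listed. *Tmem35a* encodes NACHO, a chaperone of receptor assembly, *Ric3* another chaperone, *Rapsn* the protein that gathers receptors at the neuromuscular junction, and *Lynx1*, *Ly6h*, *Ly6e*, *Lypd6* and *Lypd6b* members of a family of small proteins that bind or modulate these receptors. Of the 11 that were tested, 10 were higher in neurons than in glial cells, from 0.50 (*Ubxn2a*) to 4.23 (*Ly6h*) on the log2 scale, beside 37.8% of all genes tested, and *Creld2* was lower (-2.03 ± 0.14, adjusted p = 6.51e-06). *Ric3* was even across ganglia, between 25.8 and 28.6 CPM in the 6 libraries, closer together than any of the 10 subunits.

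*Tmem35a* was higher in the sympathetic libraries than in the others, which also differ from them in transmitter class. Its level was 79.9 CPM in the stellate, 22.3 in the sphenopalatine and 20.7 in pelvic_1, and 58.8 in the coeliac, 71.8 in the lumbar and 20.1 in pelvic_2. The 3 sympathetic libraries were high in both rounds, and the parasympathetic and pelvic libraries low, with a ratio of pelvic_1 to pelvic_2 of 1.03. The stellate exceeded pelvic_1 by 3.85-fold and the lumbar exceeded pelvic_2 by 3.58-fold. Noradrenergic neurons were 2531 of 2724 in the stellate, 210 of 237 in the coeliac and 623 of 930 in the lumbar library. They were 0 of 1903 in the sphenopalatine, 105 of 893 in pelvic_1 and 29 of 365 in pelvic_2. Ganglion and transmitter class are thus mixed in this contrast, and values by class are given below. *Rapsn* was lowest in the pelvic library of each round, at 32.6, 16.4 and 4.09 CPM in the stellate, sphenopalatine and pelvic_1 libraries and at 12.7, 21.9 and 2.38 in the coeliac, lumbar and pelvic_2 libraries. *Lynx1* was at 5.06, 39.2 and 22.7 CPM in round 1 and at 7.51, 1.46 and 13.3 CPM in round 2, in the same library order, and was lowest in the sympathetic libraries of each round. *Ly6e* was also low in the stellate (11.1 CPM) and lumbar (9.23 CPM) libraries, against 35.7 to 61.3 CPM in the other 4.

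**Figure D5:**
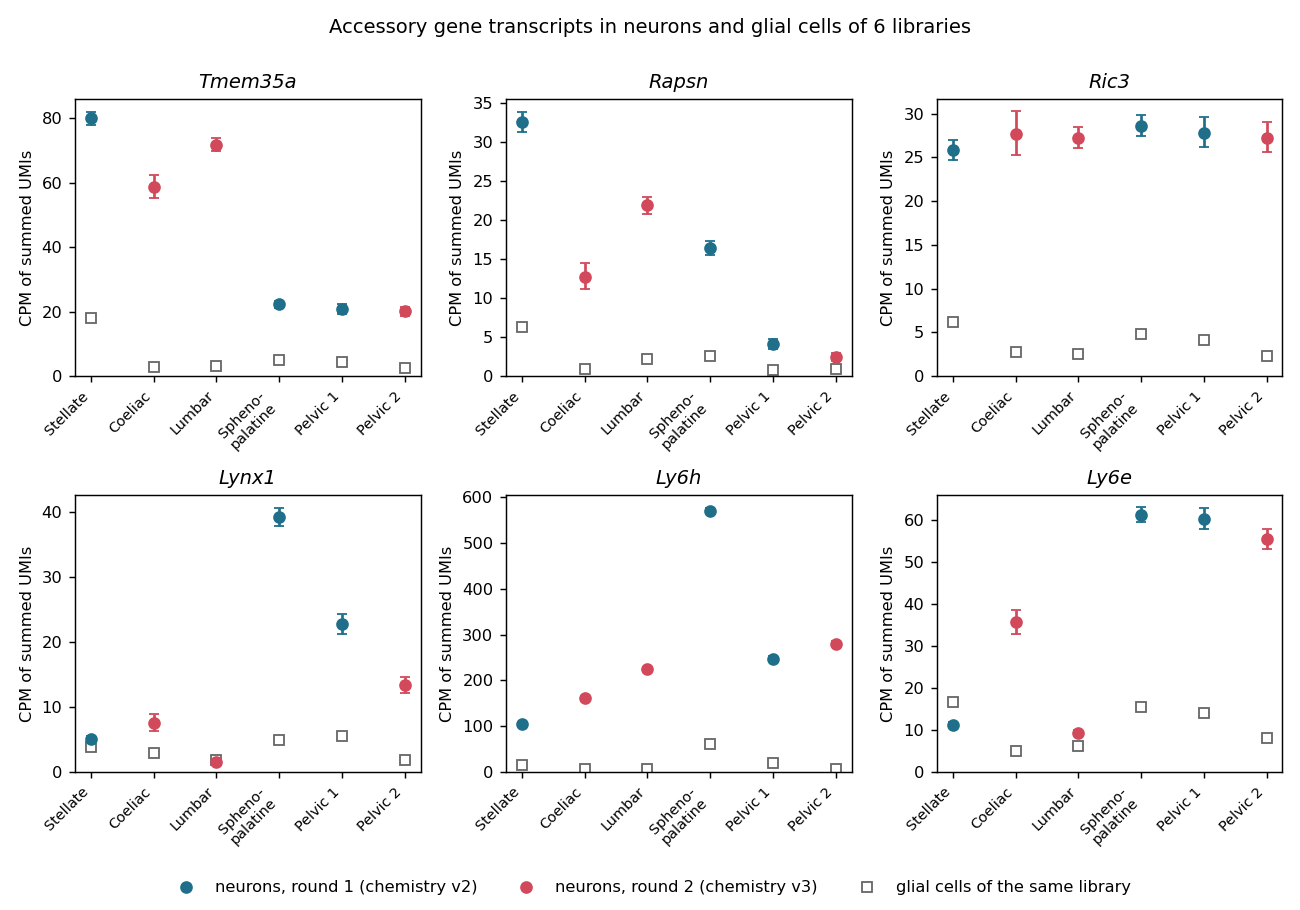
Levels of 6 accessory genes in neurons of each library, in CPM (y axis), with blue for round 1, red for round 2, open squares for glial cells and bars for exact Poisson 95% intervals. *Tmem35a* is at 58.8 to 79.9 CPM in the 3 sympathetic libraries and at 20.1 to 22.3 CPM in the other 3, and *Ric3* is level.

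Inside the pelvic ganglion, 3 of the 11 accessory genes tested differed between transmitter types, 2 of them higher in noradrenergic and 1 in cholinergic neurons, where 9.59% and 11.8% of all genes tested were called, so the count is near the background and the genes are given one by one. *Tmem35a* stood at 42.6 CPM in noradrenergic and 16.7 in cholinergic neurons of pelvic_1, and at 35.8 and 18.1 in pelvic_2, a log2 difference of 1.16 ± 0.16 (edgeR, adjusted p = 1.43e-11). *Ly6h* stood at 495 and 204 CPM in pelvic_1 and at 539.9 and 249 in pelvic_2 (1.18 ± 0.15, adjusted p = 1.87e-13). *Lynx1* stood at 2.84 and 25.9 CPM in pelvic_1 and at 0.581 and 14.7 in pelvic_2 (-3.53 ± 0.31, adjusted p = 5.38e-29). The classes did not overlap in the 2 libraries for these 3 genes, but the genes were picked by this test. The share of all genes without overlap was not counted, so this adds no support. These p-values rest on a variance shared between genes, not on the spread of each gene between the 2 libraries. In the fit without the block, which ignores the difference between the libraries, *Tmem35a* (adjusted p = 0.0737) and *Ly6h* (adjusted p = 0.0611) did not pass. In the lumbar library the values were 80.7 and 13.2 CPM for *Tmem35a*, 0.730 and 5.31 for *Lynx1*, but 196 and 516 for *Ly6h*, whose order was the opposite of that in the pelvic ganglion. The cholinergic cluster led by *Pcp4l1* and *Penk* had *Tmem35a* at 3.76 and 3.83 CPM in the 2 libraries, below each of the other 5 clusters, although *Chrna3* was high in it.

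The 6 subunit genes of muscle and other receptors were close to absent from neurons. *Chrnb1*, the beta subunit of muscle, had 14, 34 and 15 UMIs in the stellate, sphenopalatine and pelvic_1 libraries and 4, 16 and 8 in the coeliac, lumbar and pelvic_2 libraries, at most 0.447 CPM. *Chrna1* did not exceed 0.118 CPM and *Chrna10*, the partner of alpha9 in the cochlea, did not exceed 0.056 CPM, and 0 of the 6 passed the filter on low counts in either test.

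The genes whose levels ran most like those of the 4 main subunits were sought over 11 sums of neurons, each of 1 library and transmitter class, among 9796 genes. These points share libraries and rounds, and the correlations are given as a description. *Stimate* (Pearson r = 0.97) and *Smg9* (r = 0.96) were nearest to *Chrna3*, *Pcbp4* (r = 0.96) and *Imp4* (r = 0.95) to *Chrnb4*, and *Cad* and *Mpp7* (r = 0.93 each) to *Chrna5*. For *Chrnb2*, *Eaf1* (r = 0.94) and *Trim35* (r = 0.94) were at ranks 2 and 3. These 2 values did not hold within round 2, where r was 0.49 and 0.27, against 0.98 and 0.87 within round 1. For *Cad* and *Chrna5* r was 0.50 within round 1 and 0.91 within round 2. For *Stimate*, *Smg9*, *Pcbp4*, *Imp4* and *Mpp7* r was at least 0.80 in each round. Since they were picked over the same sums, this is no separate check. *Slc10a4*, a transporter-like protein of synaptic vesicles, was the third for *Chrnb4*, with r = 0.94 over all sums, 0.95 over the 5 sums of round 1 and 0.94 over the 6 of round 2. Among the subunits, r between *Chrna3* and *Chrnb4* was 0.73 over all sums, 0.67 within round 1 and 0.77 within round 2. Between *Chrna3* and *Chrnb2* it was 0.85 over all sums but 0.45 within round 1 and 0.43 within round 2, so the pooled value is larger than that in either round. For *Chrna3* and *Chrna5* r was -0.41 over all sums but 0.82 within round 2 and -0.24 within round 1, so the pooled value does not hold within rounds.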

How the data were processed

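The authors deposited counts of UMIs per gene and droplet for 6 libraries, made with Cell Ranger 6.0.1 on mm10 and limited by it to droplets called as cells. No normalized value was used, and 0 columns belonged to other samples. Neurons of whole dissociated ganglia were identified with the markers and the neuronal threshold of the study's methods, and the glial threshold was set here.

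Droplets were kept if more than 1500 but fewer than 11000 genes were detected and mitochondrial genes gave less than 15% of UMIs. Marker means came from sctransform 0.4.2 in Seurat 5.3.0. Neurons had a neuronal mean above 3 and a glial mean below 1.15, the valley of its histogram. Clusters used Louvain at resolution 0.3 on 50 components corrected by mutual nearest neighbours. Counts were summed per library and class and tested with edgeR 4.0.16 (filterByExpr, TMM, quasi-likelihood, adjusted p at most 0.05), with the library as a block because both classes came from 1 library. The procedure was tested on simulated data. A neighbour method marked 2262 droplets as likely doublets, which were kept and removed in an alternative. Any 2 libraries shared at most 49 barcodes. Whether the 2 pelvic libraries came from separate animals is not given in the sources used here, so p-values concern libraries and not animals. In the pelvic fit, intervals and p-values rest on a variance shared between genes, not on the spread of each gene between the 2 libraries.

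Promoter entries of RefSeq were matched by symbol. Named genes are the 10 members, 6 other subunits, 12 accessory genes, 7 neuronal controls and the 3 genes most like each main member, of which 1 is not reported here. Members and lists were chosen with earlier results of these data known. Alternatives were DESeq2 1.42.0, library totals, no filter, no block, log-count selection, doublet removal, other *Th* cuts, thinning, and each library left out. Median-of-ratios scaling and the omission of 2 unnamed clusters were added after the data were seen.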

Additional observations from a re-analysis of the deposited data

Results flagged for a closer look

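The difference between noradrenergic and cholinergic neurons had 1 sign in the lumbar library and the opposite sign in both pelvic libraries for 3 accessory genes, a contrast that was not tested. They were picked by sign alone, with no condition on size, from the 5 subunit and 11 accessory genes tested in the pelvic comparison. The share of all genes with such a change of sign was not counted. For *Ly6h*, whose protein is reported to reduce alpha7 receptors at the cell surface, the log2 difference (noradrenergic minus cholinergic, with a pseudocount of 1 CPM) was -1.39 in the lumbar, 1.27 in pelvic_1 and 1.12 in pelvic_2. For *Rapsn*, the receptor-clustering protein of the muscle synapse, it was -0.44, 0.54 and 0.24. For *Ubxn2a* it was -0.45, 0.22 and 0.12. In the pelvic edgeR fit *Rapsn* (adjusted p = 0.323) and *Ubxn2a* (adjusted p = 0.612) did not pass, so the sign of their pelvic difference is not settled. The lumbar values rest on 49 cholinergic neurons of 1 library. Of 17 genes examined, 0 had a library that stood apart from the other 5 by Dixon's criterion (gap over range above 0.625).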

How the results depend on the processing

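The 5 subunit genes that were higher in neurons passed in each alternative in which they were tested, and 4 or 5 members were called throughout. *Chrna4* did not pass the filter, and was not tested, after thinning to 2000 UMIs, with log-count selection, without doublets and without the stellate. *Chrna7*, at 0.05 in the fit reported, was -0.067 with DESeq2, -0.045 with library totals and between -0.51 (without the coeliac) and 0.33 (without the sphenopalatine) with 1 library left out, none past the threshold. In the pelvic comparison, no alternative called a member, but some edgeR fits gave members an unadjusted p under 0.05, where the fit reported gave 0. There was 1 such member with library totals, 1 without doublets and 1 without the 2 unnamed clusters. There were 2 with no filter and 2 with classes cut after thinning to 4000 UMIs. *Chrnb4* was 0.14 and *Chrnb2* -0.10 with a *Th* cut at 5 per 10000, and *Chrnb4* was 0.079 without the 2 unnamed clusters, an alternative chosen after seeing the data. The cause of these sign changes was not tested. With 1 pelvic library left out there is no test, and *Chrna4* was 0.18 without pelvic_1 and -2.77 without pelvic_2.

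The libraries pair the sums, since both classes of cells come from the same library. Without this block, 565 genes passed in the pelvic comparison, and 1455 with DESeq2, against 1359 in 1 direction and 1667 in the other in the fit reported. Among the subunit and accessory genes, the block changed no other call than *Tmem35a* and *Ly6h*. *Ywhah*, not called in the fit reported (-0.36 ± 0.17, adjusted p = 0.124), passed with DESeq2 (adjusted p = 0.0181) and with library totals (adjusted p = 0.00245).

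*Chrna3*, *Chrnb4*, *Chrna5* and *Chrnb2* kept at least 10 CPM in all 6 libraries under each alternative for levels. That floor does not mean that levels were unchanged. Of the results for levels under the alternatives, 118 were marked as moved and 408 as the same. The pelvic test has 1 residual degree of freedom, and its 29 noradrenergic neurons of pelvic_2 limit *Chrna4*. Levels of *Chrna4* and *Chrna7* rest on few UMIs, and each ganglion but the pelvic had 1 library.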
